A study of Homo sapiens with 6 samples.

Results

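The expression of 9 genes of eosinophils, basophils and mast cells was examined in K562 cells treated with hyperoside. The genes were the transcription factor CEBPE, the granule protein genes PRG2, PRG3 and CPA3, the receptor genes IL5RA, IL1RL1 and KIT, and the enzyme genes HDC and HPGDS. They were picked by symbol from the 24960 genes of the deposited table with their counts in control and hyperoside libraries known, so their differences between the groups are given as a description, with no p-value. K562 is an established line of leukaemia cells that carry BCR-ABL1, and hyperoside is a plant flavonol glycoside, quercetin with a galactose. RNA was sequenced from 3 control libraries and from 3 libraries of cells given hyperoside at 2 mM, a dose that the labels do not state. Both groups were the same line with the same fusion gene, and the time of exposure before RNA extraction was not given in the sources used here. The labels did not state whether the replicates came from separate cultures, so the errors and p-values measure the spread between these libraries, which may be technical.

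Each library held between 35613283 and 36754725 counts on genes, and 15095 genes passed the filter on low counts. Of these, 970 were higher and 567 were lower in hyperoside by the criteria for differentially expressed genes (DEGs), which ask for an adjusted p below 0.05 and more than a 2-fold difference. The labels give the tissue of the cells as bone. The summed level of the bone markers was 4.65 to 6.29 counts per 1000000 counts of the library (CPM) in control and 4.51 to 5.89 CPM in hyperoside libraries, with DMP1, a gene of osteocytes, at 0 in every library. The erythroid markers that K562 cells carry summed to 5055 to 6538 CPM in control and to 3670.4 to 4476 CPM in hyperoside libraries.

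Eosinophils, basophils and mast cells are granule-filled cells of the myeloid lineage that take part in allergy and in the defence against parasites. GATA1 and GATA2 act with factors of the C/EBP family in their formation, and CEBPE is needed for the late maturation of eosinophils and neutrophils. IL-5, which acts through IL5RA, drives eosinophil growth. Stem cell factor, which acts through KIT, does the same for mast cells, and IL-33 activates all of these cells through IL1RL1, also called ST2. Granules hold the major basic protein (PRG2) in eosinophils and histamine, made by HDC, in basophils and mast cells. Mast cell granules also hold carboxypeptidase A3 (CPA3), while HPGDS makes prostaglandin D.

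The start regions of the genes were searched for short recognition sequences of both factor families named above. RefSeq windows on GRCh38.p14, each 300 bases long with 250 bases before and 50 after the annotated start, matched 8 of the 9 genes, and IL1RL1 had 2 windows. PRG2 had no window. Each window was searched on both strands for the GATA motif GATAA and for the C/EBP motif TTGCNNAA, where N is any base. The letters were chosen after the windows had been read, so the counts are a description from which nothing is read. The GATA motif lay in 6 of the 9 windows, against 22.7% of the 35116 windows of all genes. The C/EBP motif lay in 1 of the 9 windows, that of CPA3, against 10.5% of all windows. The windows below are shown because they hold the contrasts within the set: the upstream and downstream starts of IL1RL1, the starts of IL5RA, PRG3 and HPGDS with a GATA match, the start of CPA3 with both motifs, and the start of CEBPE with neither. All are written 5′ to 3′ on the strand of the gene. Capitals mark the matches, with TTATC being GATAA on the other strand.
IL1RL1, upstream start, chr2:102311313-102311612, plus strand: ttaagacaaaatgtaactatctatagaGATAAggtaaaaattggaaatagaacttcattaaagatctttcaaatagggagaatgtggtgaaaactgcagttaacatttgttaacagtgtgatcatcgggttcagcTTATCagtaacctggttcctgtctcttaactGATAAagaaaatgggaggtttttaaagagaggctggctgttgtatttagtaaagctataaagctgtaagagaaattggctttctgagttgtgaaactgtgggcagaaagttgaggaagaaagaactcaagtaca
IL1RL1, downstream start, chr2:102337007-102337306, plus strand: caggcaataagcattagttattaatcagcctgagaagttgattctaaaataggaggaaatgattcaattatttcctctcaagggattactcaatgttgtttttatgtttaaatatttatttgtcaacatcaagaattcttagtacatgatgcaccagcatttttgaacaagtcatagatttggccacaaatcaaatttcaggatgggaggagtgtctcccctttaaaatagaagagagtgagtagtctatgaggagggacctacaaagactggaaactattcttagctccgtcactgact
IL5RA, chr3:3110325-3110624, minus strand: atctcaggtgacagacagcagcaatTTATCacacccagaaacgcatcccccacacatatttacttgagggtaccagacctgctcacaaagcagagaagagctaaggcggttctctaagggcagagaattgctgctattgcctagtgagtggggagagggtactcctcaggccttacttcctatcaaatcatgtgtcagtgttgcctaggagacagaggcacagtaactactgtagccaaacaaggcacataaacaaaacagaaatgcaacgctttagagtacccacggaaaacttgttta
PRG3, chr11:57381101-57381400, minus strand: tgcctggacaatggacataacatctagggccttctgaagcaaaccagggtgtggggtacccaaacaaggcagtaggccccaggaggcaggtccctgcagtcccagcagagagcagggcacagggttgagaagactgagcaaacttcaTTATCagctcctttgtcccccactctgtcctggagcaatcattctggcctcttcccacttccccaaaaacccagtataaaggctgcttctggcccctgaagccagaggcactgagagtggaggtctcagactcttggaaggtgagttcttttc
HPGDS, chr4:94342787-94343086, minus strand: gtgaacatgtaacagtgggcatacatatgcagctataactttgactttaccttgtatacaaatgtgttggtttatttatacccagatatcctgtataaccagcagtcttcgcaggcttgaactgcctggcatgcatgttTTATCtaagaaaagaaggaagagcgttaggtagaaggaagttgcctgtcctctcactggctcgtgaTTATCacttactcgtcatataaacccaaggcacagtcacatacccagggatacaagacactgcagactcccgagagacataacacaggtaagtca
CPA3, chr3:148865046-148865345, plus strand: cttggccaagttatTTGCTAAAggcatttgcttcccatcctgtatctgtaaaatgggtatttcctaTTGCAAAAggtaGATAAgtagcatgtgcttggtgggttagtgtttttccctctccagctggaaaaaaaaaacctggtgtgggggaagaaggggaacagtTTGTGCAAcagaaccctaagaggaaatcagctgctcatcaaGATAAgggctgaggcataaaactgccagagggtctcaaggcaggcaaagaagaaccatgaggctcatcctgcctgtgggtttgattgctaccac
CEBPE, chr14:23119206-23119505, minus strand: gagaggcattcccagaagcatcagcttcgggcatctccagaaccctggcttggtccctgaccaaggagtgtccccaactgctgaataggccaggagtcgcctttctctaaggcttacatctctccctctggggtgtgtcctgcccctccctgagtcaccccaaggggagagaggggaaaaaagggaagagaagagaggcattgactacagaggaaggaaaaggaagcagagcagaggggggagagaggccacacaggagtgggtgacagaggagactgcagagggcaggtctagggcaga

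The upstream IL1RL1 window held 3 GATA matches, while its downstream window held none. HPGDS and CPA3 held 2 GATA matches each, and IL5RA, PRG3 and HDC held 1 each. The windows of CEBPE and KIT held neither motif, and that of KIT was 74.3% G and C bases against 35.0% in the upstream IL1RL1 window. CPA3 held 3 C/EBP matches. A match is a run of letters and was not tested as a binding site. The RefSeq window of IL5RA lies inside the span given for the gene below, 3066326 to 3126613. It does not reach the upper end of that span, where a gene on the minus strand begins. Gene-level counts do not show which start of IL1RL1 or IL5RA was used.

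**Figure D1:**
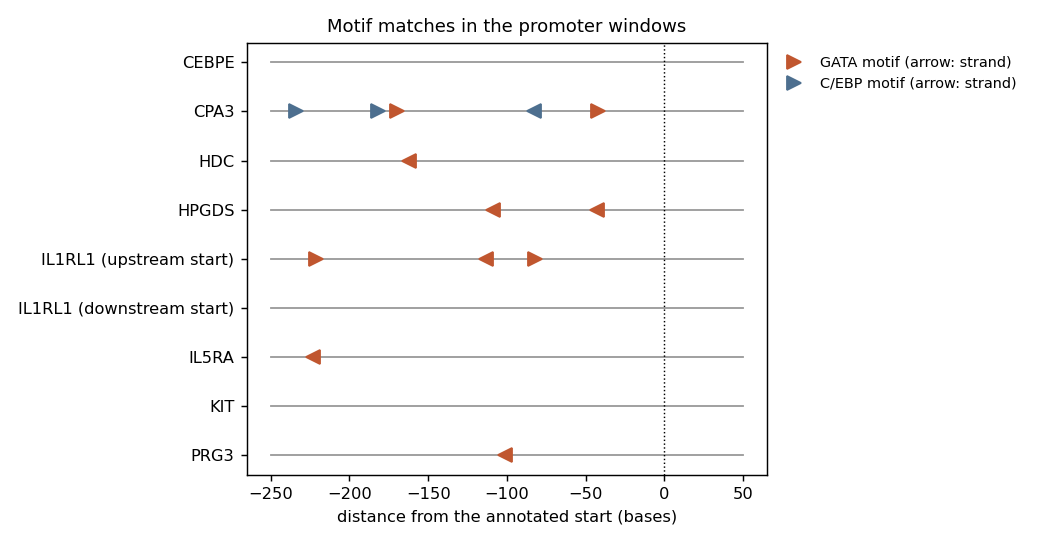
Position of GATA (GATAA) and C/EBP (TTGCNNAA) matches on either strand, in bases from the annotated start, in the 9 RefSeq windows of the 8 genes that had one. The 3 GATA matches of the upstream IL1RL1 window and the 3 C/EBP matches of CPA3 stand out, and the rows of CEBPE, KIT and the downstream IL1RL1 window are empty.

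Of the 9 genes, 8 passed the filter on low counts, and all 8 met the DEG criteria in the higher direction. Among all tested genes 6.43% did so, and nothing is read from the comparison because these values led to the choice of the genes. In each of the 8, every hyperoside library lay above every control library on the CPM scale, as was the case for 27.1% of all tested genes. The median log2 fold change (hyperoside minus control) of the 8 was 1.87, with a range of 1.46 to 3.73, and the median of all tested genes was 0.0032. CPA3 did not pass the filter. In bulk RNA, more cells that express a gene and more RNA of that gene per cell cannot be told apart.

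CEBPE, on chromosome 14 at 23117304 to 23119616 (GRCh38, minus strand), encodes the C/EBP factor of late granulocyte maturation and had the largest fold change of the 9. It was counted at 36, 36 and 32 in the control libraries and at 440, 457 and 531 in the hyperoside libraries. The levels were 1.02, 1.02 and 0.896 CPM in control and 12.0, 12.4 and 14.7 CPM in hyperoside, so that the lowest hyperoside library stood 11.7 times above the highest control library. The mean went from 0.981 ± 0.0737 to 13.04 ± 1.45 CPM (SD, n = 3 each), with a log2 fold change of 3.73 (SE 0.19), or 13.3 times. The control libraries were closer to each other than for any other of the 8 tested genes, with a coefficient of variation of 7.51%. No GATA or C/EBP letters were found in its window, shown above.

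PRG2 encodes the major basic protein of eosinophil granules and PRG3 its homologue. The genes are neighbours on the minus strand of chromosome 11, PRG3 at 57376769 to 57381150 and PRG2 at 57386794 to 57390657. PRG2 was the most abundant gene of the set in every library. Its level was 214, 179 and 118 CPM in control and 451, 536 and 486 CPM in hyperoside libraries, with means of 170.3 ± 48.3 and 491.04 ± 42.6 CPM (SD, n = 3 each). The groups did not overlap, but the control libraries spread widely, and control replicate 3 was at 0.554 of control replicate 1. The log2 fold change of PRG2 was 1.53 (SE 0.14). The exons of PRG2 overlap those of AP000781.2, a protein-coding annotation on the same strand, and the way such reads were counted was not given in the sources used here.

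PRG3 stood at 2.79, 2.70 and 0.896 CPM in control and at 10.3, 8.31 and 8.86 CPM in hyperoside libraries. Control replicate 3 was again the lowest, at 0.321 of control replicate 1, and the other 2 control libraries were alike. The log2 fold change of PRG3 was 2.10 (SE 0.28), from 2.13 ± 1.07 to 9.15 ± 1.01 CPM (SD, n = 3 each). Per length, in fragments scaled to gene length and library total (FPKM), PRG2 was above PRG3 by 43.2, 37.2 and 74.4 times in control and by 24.7, 36.3 and 30.9 times in hyperoside libraries. The ranges of this ratio did not overlap, but control replicate 2 and hyperoside replicate 2 nearly met.

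CPA3, the carboxypeptidase of mast cell granules, lies on chromosome 3 at 148865256 to 148897196 on the plus strand. It had 0 counts in each control library and 4, 0 and 0 counts in the hyperoside libraries. The 4 counts over the hyperoside group have an exact 95% Poisson interval of 1.09 to 10.2. The same interval for the 0 counts over the control group reaches up to 3.69. These intervals overlap, so a difference was not detectable at this depth and no fold is given. They cover counting error only. CPA3 was the only member whose window, shown above, held both motifs, and it had the fewest counts. Nothing is read from this pairing.

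**Figure D2:**
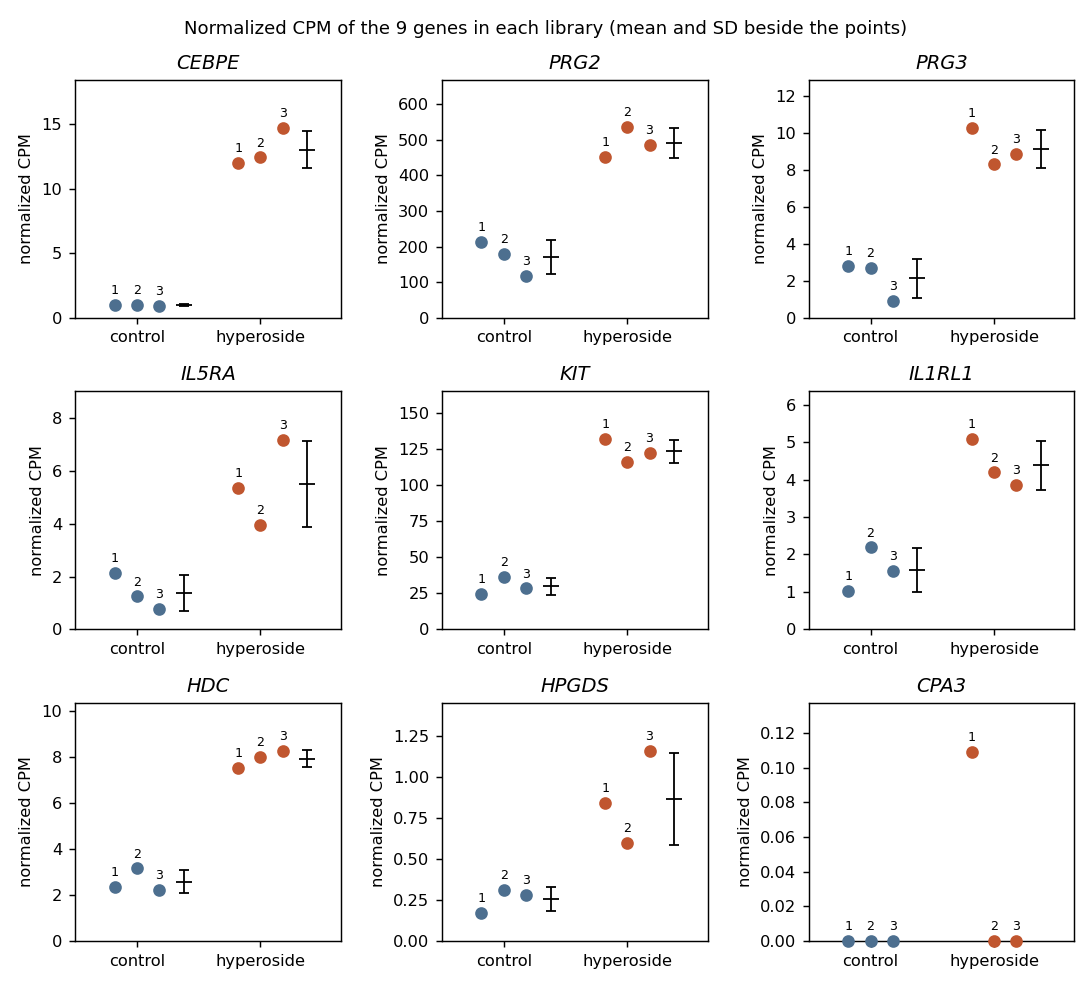
CPM of the 9 genes in each of the 6 libraries (points; linear axes that start at 0 and differ between panels), with the group mean and SD (bars) except for CPA3. Hyperoside libraries lie above control libraries in 8 panels, from a gap of 1.76 times in IL1RL1 to one of 11.7 times in CEBPE, and CPA3 has counts in 1 library only.

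The 3 receptor genes followed. KIT, on chromosome 4 at 54657918 to 54740715 on the plus strand, encodes the receptor of stem cell factor. Its level was 24.9, 36.4 and 28.5 CPM in control and 132, 116 and 122 CPM in hyperoside libraries, with the lowest hyperoside library 3.19 times above the highest control library. The mean went from 29.9 ± 5.93 to 123.7 ± 8.03 CPM (SD, n = 3 each), with a log2 fold change of 2.05 (SE 0.11), the smallest error in the set. Control replicate 3, which was lowest for PRG2 and PRG3, was the middle library for KIT.

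IL5RA, the alpha chain of the IL-5 receptor, lies on chromosome 3 at 3066326 to 3126613 on the minus strand. It was counted at 75, 44 and 28 in control and at 197, 145 and 260 in hyperoside libraries, which is 2.13, 1.25 and 0.784 CPM against 5.37, 3.95 and 7.20 CPM. The groups did not overlap, but both spread more than for most members, with coefficients of variation of 49.3% and 29.6%. The log2 fold change of IL5RA was 1.99 (SE 0.31). Its annotated span overlaps CNTN4-AS1 on the same strand.

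IL1RL1, the receptor of IL-33, lies on the plus strand of chromosome 2 at 102311502 to 102352037. It was counted at 36, 77 and 56 in control and at 187, 154 and 139 in hyperoside libraries. This gave 1.02, 2.19 and 1.57 CPM in control and 5.10, 4.19 and 3.85 CPM in hyperoside, and the gap between the groups, 1.76 times, was the smallest of the 8. The log2 fold change of IL1RL1 was 1.46 (SE 0.27), from 1.59 ± 0.582 to 4.38 ± 0.644 CPM (SD, n = 3 each). Unlike PRG2, PRG3 and IL5RA, IL1RL1 was lowest in control replicate 1. Its annotation overlaps that of IL18R1 on the same strand, and IL18R1 was also higher in hyperoside, as given below.

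The 2 enzyme genes were at low levels. HDC, histidine decarboxylase, which makes histamine, lies on chromosome 15 at 50241947 to 50266026 on the minus strand. Its level was 2.36, 3.15 and 2.21 CPM in control and 7.52, 8.01 and 8.28 CPM in hyperoside libraries. The hyperoside libraries were the closest to each other of any member, with a coefficient of variation of 4.84%, and all lay at least 2.38 times above control. The mean went from 2.57 ± 0.506 to 7.93 ± 0.384 CPM (SD, n = 3 each), with a log2 fold change of 1.62 (SE 0.19).

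HPGDS, the haematopoietic prostaglandin D synthase, lies on chromosome 4 at 94298535 to 94342876 on the minus strand. It was counted at only 6, 11 and 10 in control and at 31, 22 and 42 in hyperoside libraries, or 0.171, 0.312 and 0.280 CPM against 0.845, 0.599 and 1.16 CPM. The groups did not overlap. The log2 fold change of HPGDS was 1.76, but its SE of 0.53 was the widest of the 8. As 2 of the 3 control libraries reached 10 counts, HPGDS passed the filter through its hyperoside libraries.

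Levels were compared between genes per length, on the FPKM scale. In control cells the order of mean FPKM was PRG2 at 107.9, KIT at 5.72, PRG3 at 2.39, CEBPE at 0.808, HDC at 0.779, IL1RL1 at 0.306, IL5RA at 0.212, HPGDS at 0.153 and CPA3 at 0. The libraries of CEBPE and HDC overlapped in this order, as did those of IL1RL1 and IL5RA and of IL5RA and HPGDS, so these neighbours did not differ beyond their spread. In hyperoside cells PRG2 was at 323.3, KIT at 24.4, CEBPE at 11.1, PRG3 at 10.7, HDC at 2.48, IL5RA at 0.874, IL1RL1 at 0.868, HPGDS at 0.539 and CPA3 at 0.0211 FPKM. CEBPE thus moved from a level like that of HDC to one like that of PRG3, whose libraries it overlapped, and IL5RA and IL1RL1 also overlapped. Other neighbours in both orders were apart.

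Most of the RNA of the set per length came from the major basic protein gene. PRG2 made up 93.1%, 90.0% and 89.9% of the summed FPKM of the 9 genes in control and 84.8%, 88.1% and 85.9% in hyperoside libraries. PRG2 was above 98.0% of the table's genes by mean FPKM in control cells, at rank 494, and above 99.4% in hyperoside cells, at rank 151. CEBPE moved from rank 11409 to rank 4721 and KIT from rank 6883 to rank 2396. IL1RL1, IL5RA and HPGDS were at ranks 13064, 13651 and 14242 in control and at ranks 11535, 11518 and 12363 in hyperoside cells, with mean levels below 1 FPKM in both.

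**Figure D3:**
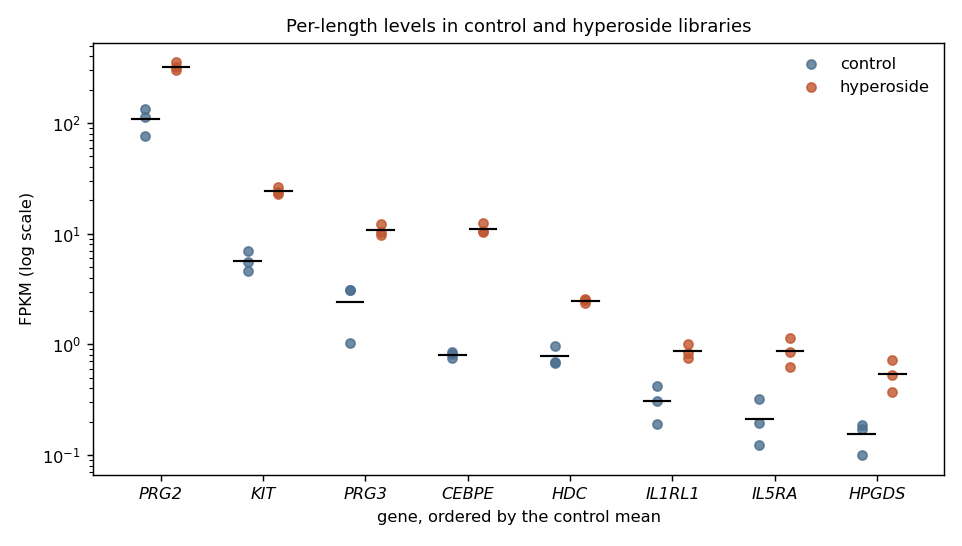
FPKM (log axis) of the 8 tested genes in each library (points) with the group mean (lines), ordered by the control mean. PRG2 lies above 75 FPKM in every library, CEBPE passes from 0.808 to 11.1 FPKM on average, and IL1RL1, IL5RA and HPGDS stay at the bottom of the range in both groups.

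The control libraries did not spread alike for all members. PRG2, PRG3 and IL5RA were highest in control replicate 1 and lowest in control replicate 3, which stood at 0.554, 0.321 and 0.367 of control replicate 1. The same ratio was 0.875 for CEBPE, 0.937 for HDC, 1.15 for KIT, 1.53 for IL1RL1 and 1.64 for HPGDS. Without control replicate 3 the log2 fold changes fell to 1.32 for PRG2, 1.73 for PRG3 and 1.70 for IL5RA, and without control replicate 1 those of PRG3 and IL5RA rose to 2.35 and 2.44. The linear fold of IL5RA was then 5.41, against 3.96 with all libraries and 3.24 without control replicate 3. CEBPE ranged only from 3.65 to 3.79 over the 11 alternatives that were run.

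**Figure D4:**
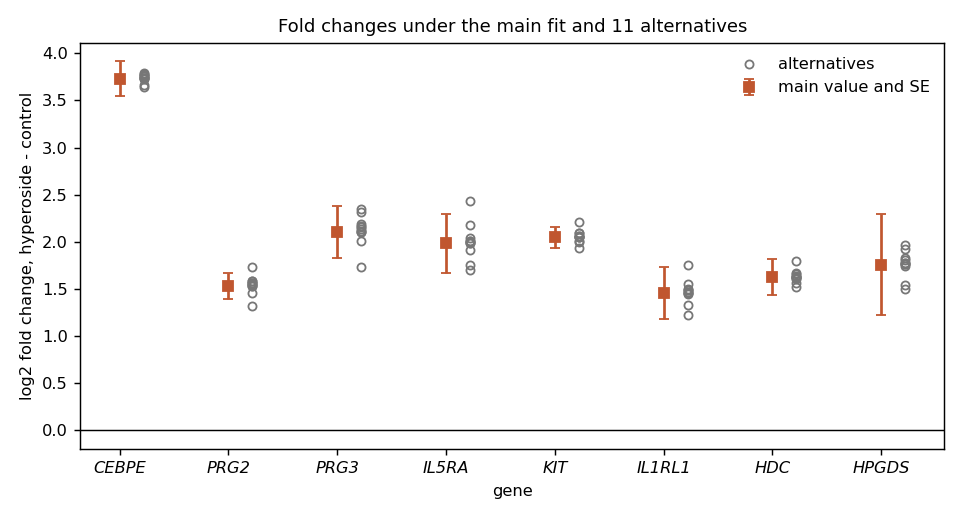
Log2 fold change (hyperoside minus control) of the 8 tested genes with all libraries (squares, bars are the SE) and under 11 alternatives (open circles). CEBPE stays between 3.65 and 3.79 and IL5RA ranges from 1.70 to 2.44. Every value lies above 0, and nothing is read from this because the groups of these genes did not overlap.

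The genes beside the members on the chromosome, which had no part in the choice, were compared next by the quasi-likelihood test of edgeR, adjusted over all tested genes by the Benjamini-Hochberg method. Leaving out PRG2 and PRG3, which are each other's neighbours, there were 16 neighbours and 10 were tested. At an adjusted p under 0.05, 5 were higher in hyperoside, 2 were lower and 3 were not called, while 22.1% of all tested genes were higher and 23.2% were lower. SLC27A2, a fatty acid transporter gene 5.56 kb from HDC, rose from 51.9 ± 3.12 to 117.5 ± 5.47 CPM (SD, n = 3 each), with a log2 fold change of 1.18 and an adjusted p of 3.54e-09 in edgeR. IL18R1, a receptor chain for IL-18 that lies 3.44 kb from IL1RL1 by the RefSeq annotation, rose by a log2 fold change of 0.71, less than IL1RL1. SLC7A8, an amino acid transporter gene beside CEBPE, and SLC43A3, beside PRG2, rose by log2 fold changes of 0.62 and 0.69. KDR, at 338 kb from KIT, was called with a log2 fold change of 1.41 and an adjusted p of 0.0413 in edgeR, and the call was lost without 5 of the 6 libraries in turn, control replicates 1 and 2 and each hyperoside replicate, with adjusted p of 0.0801 to 0.170, and with DESeq2 (0.0552). Without control replicate 3 its log2 fold change was 2.06. TRNT1, beside IL5RA, and GABPB1, beside HDC, were lower by 0.55 and 0.40 on the log2 scale, and SMARCAD1 and PDLIM5, which flank HPGDS, and GYG1, beside CPA3, were not called. PDGFRA, the receptor gene on the other side of KIT, had 0 counts in all 6 libraries.

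Profiles over the 6 libraries were compared by the Euclidean distance of centred log2 CPM, as a description of the 3 tested members with the highest mean CPM. Nearest to PRG2 were FMN2, EPB41L3 and MYO3B, at distances of 0.293, 0.307 and 0.336. FMN2 was at a very low level, with means of 0.113 CPM in control and 0.447 CPM in hyperoside, so its profile is uncertain. Nearest to KIT were FOSL2, TXNIP and TRANK1, at 0.227, 0.278 and 0.301. CEBPE had more distant neighbours, CHST3 at 0.384, FFAR2 at 0.597 and FPR3 at 0.627, of which FFAR2 had a mean of only 0.170 CPM in control. All of these genes share the split between control and hyperoside libraries, and 6 libraries give no measure of shared control.

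The other genes of these lineages were taken from 8 lists of 144 genes that hold no member. Of these, 130 were in the table and 85 were tested. Genes absent from the table, among them RNASE3, VSTM1, CMA1, CTSG, IL3RA, CSF2RA and CRLF2, have no known level here. By the same edgeR test, Benjamini-Hochberg adjusted, 40 of the 85 were higher at an adjusted p under 0.05 (47.1%, against 22.1% of all tested genes) and 13 were lower (15.3%, against 23.2%), and 32 were not called. Their median log2 fold change was 0.40, against 0.0032 for all tested genes. The lists were chosen with earlier results of these data known, so nothing is read from these comparisons.

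Of the eosinophil granule and surface genes, 4 of 7 tested genes rose and 3 were not called, with a median log2 fold change of 1.85. CLC, which encodes the Charcot-Leyden crystal protein galectin-10, stood at 34.5, 26.2 and 14.7 CPM in control and at 113, 136 and 115 CPM in hyperoside libraries. Like PRG2, CLC was lowest in control replicate 3. Its log2 fold change was 2.28 (SE 0.19, adjusted p = 3.81e-08 in edgeR). EPX, eosinophil peroxidase, rose from 2.73 to 12.7 CPM on average, with a log2 fold change of 2.22 (SE 0.17). SIGLEC8, a lectin on eosinophils and mast cells, rose by 2.08 (SE 0.40) and the integrin gene ITGA4 by 1.85 (SE 0.18) on the log2 scale. CD24, SMPD3 and ADGRE1 were not called. Untested genes of this list that were in the table were near 0. RNASE2 was at 0, 9 and 0 counts in control and 7, 14 and 23 in hyperoside libraries, and CCR3, the eotaxin receptor gene, at 1 count in a single library. RNASE3 and VSTM1 were not in the table.

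Mast cell and basophil granule genes had a median log2 fold change of 0.28 over 8 tested genes, of which 4 rose and 1 fell. ENPP3, the basophil marker CD203c, rose from 23.2 to 43.0 CPM, with a log2 fold change of 0.89 (adjusted p = 9.09e-05 in edgeR), and the granule membrane gene CD63 by 0.48. RAB27A, which serves granule release, fell by 0.65 on the log2 scale, while its homologue RAB27B rose by 0.49. SLC18A2, the transporter that loads histamine into granules, rose by 1.37 (adjusted p = 0.0178 in edgeR). The proteoglycan gene SRGN, VAMP8 and NDST2 were not called. The tryptase genes TPSAB1 and TPSB2, near-identical copies that define mast cells, had 1 count each in 1 hyperoside library and none elsewhere, and TPSD1 and CPA4 had 0 counts throughout. How reads that match both TPSAB1 and TPSB2 were counted was not given in the sources used here, so these counts may be too low. The call of SLC18A2 was lost without control replicate 2, hyperoside replicate 1 or hyperoside replicate 3, with adjusted p of 0.0523 to 0.0648. That of RAB27B was lost without control replicate 1 (log2 fold change 0.28) or hyperoside replicate 1 (0.42), with adjusted p of 0.0577 and 0.0960 in edgeR.

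The chains of the high-affinity IgE receptor, by which mast cells and basophils sense antigen, were at low levels. FCER1A was counted at 2, 5 and 0 in control and 2, 16 and 8 in hyperoside libraries, and FCER1G at 2, 4 and 2 against 1, 1 and 6. MS4A2, the beta chain, was tested and not called, with a log2 fold change of 0.46 and an adjusted p of 0.17 in edgeR. Over the list of this receptor and its signalling, 5 of 12 tested genes rose and 2 fell, with a median log2 fold change of 0.25. MS4A3, a relative of MS4A2 found in granulocyte precursors and basophils, rose from 69.7 to 179.9 CPM, with a log2 fold change of 1.37 (SE 0.07), and the phosphatase gene INPP5D rose by 1.45 (SE 0.14). SYK, the kinase downstream of the receptor, rose by 0.70 and GAB2 by 0.32, and FYN fell by 0.43. PLCG2 rose by 0.39 and LCP2 fell by 0.39, but the call of PLCG2 was lost without control replicate 2 or 3 or hyperoside replicate 2 or 3 (adjusted p of 0.107 to 0.159) and that of LCP2 without control replicate 3 or hyperoside replicate 2 or 3 (0.0549 to 0.0674 in edgeR). LYN, BTK and PLCG1 were not called.

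**Figure D5:**
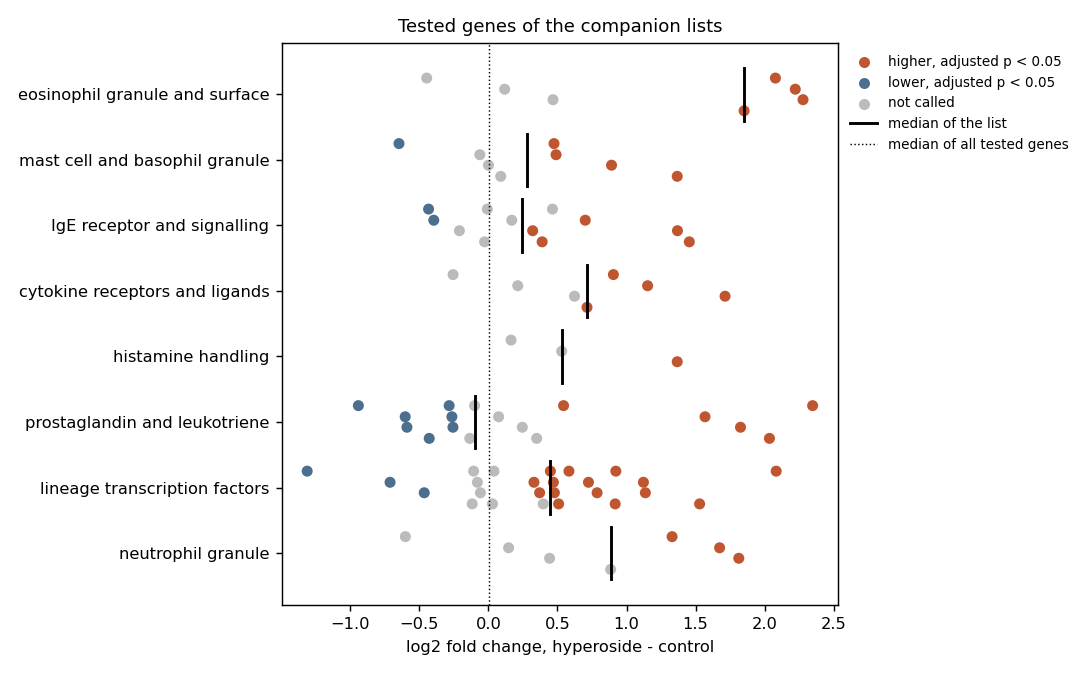
Log2 fold change (hyperoside minus control) of the tested genes in the 8 lists that hold no member, by list. Red and blue points are genes called higher and lower at an adjusted p under 0.05, grey points were not called, solid lines are list medians and the dotted line is the median of all tested genes. The eosinophil list has the highest median, 1.85, and the prostaglandin and leukotriene list is spread on both sides of 0, with a median of -0.10.

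Partners of the member receptors were mixed. CSF2RB, the beta chain that pairs with IL5RA, stood at 2.67, 1.85 and 2.74 CPM in control and at 4.01, 5.01 and 4.60 CPM in hyperoside libraries. Its log2 fold change of 0.91 (SE 0.23, adjusted p = 0.00351 in edgeR) was smaller than the 1.99 of IL5RA. IL1RAP, the co-receptor of IL1RL1, was not called, with a log2 fold change of 0.62 and an adjusted p of 0.0605 in edgeR. IL18RAP, the partner of IL18R1, rose by 1.71 (SE 0.11) and IL4R, the IL-4 receptor chain, by 1.15 (SE 0.13) on the log2 scale. The ligands were scarce. KITLG, which encodes stem cell factor, was counted at 2, 2 and 0 in control and 16, 1 and 11 in hyperoside libraries, IL5 at 1, 4 and 0 against 0, 10 and 1, and IL33 at 0, 6 and 0 against 0, 1 and 0. In all, 4 of 7 tested genes of this list rose, and IL1RAP, TSLP and IL1R1 were not called.

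Around HDC, the histamine-degrading enzyme gene HNMT and the receptor gene HRH1 were not called, so 1 of 3 tested genes of the histamine list rose, SLC18A2. Around HPGDS, the genes of prostaglandin and leukotriene synthesis went both ways, with 5 of 17 higher, 7 lower and a median log2 fold change of -0.10. HPGD, which breaks prostaglandins down, rose from 5.04 to 17.8 CPM, with a log2 fold change of 1.83 (SE 0.13). PTGES, a prostaglandin E synthase, rose by 2.03, the cyclooxygenase gene PTGS2 by 1.57, the leukotriene enzyme gene ALOX5 by 0.54 and its activator ALOX5AP by 2.35 (SE 0.74). PTGES and PTGS2 were at low levels, with control means of 0.415 and 0.527 CPM. PTGDS, the other prostaglandin D synthase, moved opposite to HPGDS and stood at 8.28, 4.40 and 6.05 CPM in control and at 3.54, 2.80 and 3.41 CPM in hyperoside libraries, a fall of 0.94 on the log2 scale (adjusted p = 0.00244 in edgeR). PTGES3 fell by 0.60 and CBR1 by 0.59, and MGST2, MGST3 and AKR1C3 were not called. ALOX5AP was counted at only 9, 0 and 5 in control and at 28, 15 and 32 in hyperoside libraries. As no control library reached the minimum count of the filter, ALOX5AP was tested through its hyperoside libraries. The log2 fold change of ALOX5AP was 3.22 without control replicate 1 and 1.77 without control replicate 2. Its call was lost without control replicate 2 or hyperoside replicate 1 or 3, with adjusted p of 0.0557 to 0.0778, and that of PTGS2 without hyperoside replicate 1, with an adjusted p of 0.0677 in edgeR.

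Among the transcription factors of these lineages, 15 of 25 tested genes rose and 3 fell, with a median log2 fold change of 0.45. BHLHE41 rose by 2.08 (SE 0.50), GFI1, a repressor in granulocyte formation, by 1.53 (SE 0.21), GFI1B by 1.14, ID1 by 1.12, LMO2 and LYL1 by 0.92 each and TRIB1 by 0.79. The counts of BHLHE41 were low, at 15, 11 and 8 in control and 64, 28 and 58 in hyperoside libraries. GATA1, TAL1 and STAT5B were not called. GATA1 stood at 162, 130 and 130 CPM in control and at 129, 143 and 134 CPM in hyperoside libraries, and these groups overlapped. GATA2, XBP1 and the C/EBP factors are named here after their values were seen. GATA2 stood at 141, 126 and 129 CPM in control and at 162, 174 and 161 CPM in hyperoside libraries, with a log2 fold change of 0.33 (SE 0.07, adjusted p = 0.00134 in edgeR). CEBPG fell by 1.31 on the log2 scale (SE 0.08, adjusted p = 1.56e-09 in edgeR) and CEBPB by 0.71 (SE 0.09), while CEBPA and CEBPD were not called. The other factor that fell was XBP1, from 121.1 to 87.8 CPM on average, with a log2 fold change of -0.46 (adjusted p = 7.24e-05 in edgeR). Per length, CEBPE went from 0.808 to 11.1 FPKM while CEBPG fell from 27.6 to 11.5 FPKM and CEBPB from 38.7 to 24.5 FPKM.

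Neutrophils are the other lineage that uses CEBPE. In a list of their granule genes and the receptor gene CSF3R, 3 of 7 tested genes rose and 4 were not called. The list had summed levels of 71.8 to 79.5 CPM in control and 237.7 to 245.7 CPM in hyperoside libraries. TCN1, transcobalamin of specific granules, made up most of this sum and rose from 63.5 to 222.9 CPM, with a log2 fold change of 1.81 (adjusted p = 5.21e-12 in edgeR). LTF, lactoferrin, rose by 1.67 and CRISP3 by 1.33, while PRTN3, AZU1, CSF3R and LCN2 were not called and MPO, which defines the earlier granules, had at most 10 counts in any library. The part of this lineage in the levels of the members was not tested.

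Markers of other cell types moved as well. Of the 9 erythroid genes, 5 fell and 1 rose, with falls of 0.87 for HBG1, 0.80 for HBG2, 0.46 for HBE1, 0.96 for HBA1 and 0.88 for HBA2, and a rise of 0.96 for KLF1, on the log2 scale, while HBZ, TAL1 and GATA1 were not called. HBG1 and HBG2, and HBA1 and HBA2, are near-identical copies whose reads can be split between them. The 6 monocyte markers summed to 52.6 to 56.0 CPM in control and to 74.8 to 79.7 CPM in hyperoside libraries, mostly LYZ, with CD14 at no more than 7 counts in any library. The 6 lymphocyte markers summed to 32.2 to 38.7 CPM against 41.0 to 45.9 CPM, mostly CD3D, with MS4A1 at no more than 1 count. How these shifts relate to the levels of the members was not tested.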

How the data were processed

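RNA was extracted with TRIzol from K562 cells, 3 control and 3 hyperoside samples, and libraries were made with the VAHTS Universal V6 kit. The submitters' processing notes name fastp, HISAT2, HTSeq and hg38. Versions, annotation and strand setting are not given in the sources used here. The authors deposited raw counts per gene and FPKM values, that is, counts scaled to gene length and library total. Groups and replicate numbers came from the labels, while the dose was read in the text of the paper.

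The 9 members and the lists were chosen with earlier results of these data known, and the motif letters after the windows had been read. From each list, up to 8 called genes by fold change and the 3 most abundant uncalled ones were named, with exceptions stated. One erythroid marker is not reported here. Counts were tested in R 4.3.3 with edgeR 4.0.16 (filterByExpr with a minimum count of 10 and total of 15, TMM, quasi-likelihood test, Benjamini-Hochberg adjustment over 15095 genes). The SE is the log2 fold change divided by the square root of F. The procedure was tested on simulated data. DESeq2 1.42.0 served as an alternative. CPM used TMM-scaled totals. Tables and plots used Python 3.11.15, pandas 2.3.3, numpy 2.4.6 and matplotlib 3.10.9. Same-group replicates differed by more than counting noise (chi-square per degree of freedom of 6.34 to 23.1).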

Additional observations from a re-analysis of the deposited data

How the results depend on the processing

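The results were recomputed under 11 alternatives: DESeq2 size factors, library totals, no filter on low counts, DESeq2, a replicate block and the omission of each of the 6 libraries in turn. Under all 11, each tested member stayed higher in hyperoside, and the median of their log2 fold changes ranged from 1.68 to 2.03. The groups of these genes did not overlap, and the genes were chosen with this contrast known. Their direction could therefore hardly change, and nothing is read from its stability. The count of DEGs ranged from 1418 to 1694, against 1537, and that of called genes in the 8 lists from 48 to 57, against 53. With the replicate block, 50 list genes were called, the 3 lost being PLA2G4A, PLCG2 and PTGS1, and the log2 fold change of CEBPE was 3.72. Libraries with the same number did not deviate together, with correlations of -0.081, -0.033 and -0.034 for the 3 pairs, so the numbers give no pairing. Without the filter and with DESeq2, ALOX15, CSF2, HRH4 and IL9R were also called. PTGS1, PLA2G4A, LTA4H, PTGES2 and ZFPM1, counted among the list calls, each lost the call without at least 1 library.

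Limits are the 3 libraries per group, low counts of HPGDS, CPA3 and some list genes, and counts per gene, which do not separate transcripts or overlapping annotations.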
